A study of Mus musculus with 16 samples.

Results

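The genes described here are 8 genes of the Hedgehog signalling pathway (Dhh, Ihh, Ptch1, Smo, Gli1, Gli2, Gli3 and Hhip) together with Insl3, a hormone gene of theca cells, measured in 16 mouse ovaries. They were chosen by gene name, and all 9 were found among the 55426 genes of the deposited expression tables and were among the 18833 genes with enough counts to be tested. Each library came from 1 ovary of a female C57BL/6NHsd mouse, an inbred strain, taken in diestrus, and the 4 groups held 4 mice apiece. The On T animals had been injected weekly for 6 weeks with 0.9 mg testosterone enanthate, a slowly released testosterone ester, starting at 9 to 10 weeks of age, and were 16 weeks old when the ovary was taken. Their controls, named Control OT, were injected with sesame oil and were also 16 weeks old. Mice of the Post T group had the same injections, which were then stopped, and their ovaries were taken after 4 further estrous cycles at 24 to 28 weeks of age. Their sesame oil controls, named Control PT, were 24 to 28 weeks old too.

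Hedgehog ligands are secreted proteins. In the ovary Dhh and Ihh are made by granulosa cells, the somatic cells inside the follicle, and are received by cells outside the follicle's basement membrane, which include theca cells. The receptor Ptch1 holds back the membrane protein Smo until a ligand binds it. Smo then acts through the transcription factors Gli1, Gli2 and Gli3, and Gli1, Ptch1 and Hhip are themselves raised by the pathway in many tissues, so their RNA is often read as a measure of pathway activity. Insl3 is a peptide of the relaxin family made by theca cells in the ovary and by Leydig cells in the testis, and its receptor is Rxfp2.

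The libraries held between 26598055 and 52659637 expected counts. Markers of the ovary were present in every library. The 10 oocyte genes and the 11 granulosa genes examined summed to 177 to 460 and 2910 to 11000 CPM (counts scaled to library size with TMM factors) over all libraries, with no gene of either list at 0 in any library. On T library 2 stood apart from the other 3 of its group. Its summed level of the 11 granulosa genes was 2910 CPM, against 7520 to 11000 CPM in the other On T libraries and 5280 to 8640 CPM in Control OT. Its summed level of 9 smooth muscle genes was 3530 CPM, against 1630 to 1940 CPM in the other On T libraries and 1290 to 1480 CPM in Control OT. Results for On T are therefore given with and without it where that matters. The ovaries were sequenced whole, so fewer cells of a type and less RNA per cell cannot be told apart.

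Per unit of gene length the 9 genes covered a wide range of levels. Over all 16 libraries the mean was 71.9 TPM (a level corrected for gene length and library size) for Smo, 58.4 for Insl3, 49.5 for Ihh, 31.9 for Ptch1, 14.4 for Dhh, 8.92 for Gli1, 4.64 for Gli2, 3.97 for Hhip and 1.62 for Gli3. The order of neighbours held in all 16 libraries for Ptch1 over Dhh, Gli1 over Gli2 and Hhip over Gli3. It held in 13 of 16 for Smo over Insl3, for Ihh over Ptch1 and for Dhh over Gli1, and in 12 for Gli2 over Hhip. Insl3 was above Ihh in only 6 of 16 libraries in spite of its higher mean, its TPM running from 9.21 in a Control PT library to 162 in a Post T library. The exons of Insl3 span only 623 bases, so its TPM rests on few counts, 78 to 2009 per library. Ihh exceeded Dhh in every library, by 2.59 to 4.31 times in TPM. The third Hedgehog ligand gene, Shh, had at most 5 counts in a library and was not tested.

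**Figure D1:**
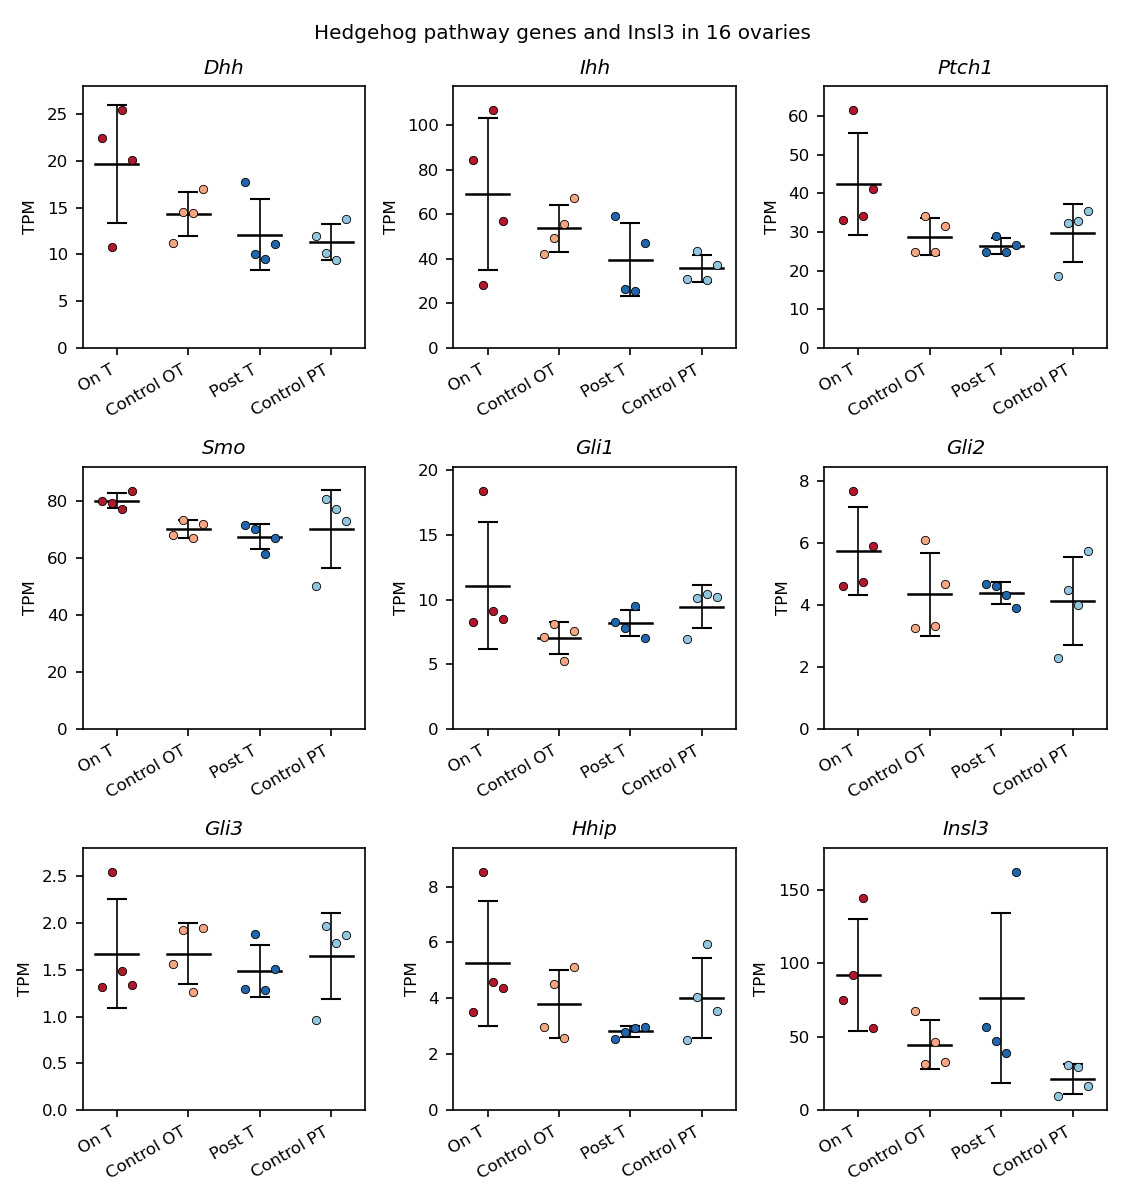
TPM of the 9 genes in each of the 16 libraries, with the groups On T, Control OT, Post T and Control PT along each horizontal axis. Points are libraries, the long bar is the mean of 4 and the error bars are 1 SD. Within On T, library 2 is the high point for Ptch1 (61.6 TPM), Gli1 (18.4 TPM), Gli3 (2.55 TPM) and Hhip (8.53 TPM) and the low point for Dhh (10.8 TPM) and Ihh (28.3 TPM).

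The first comparison asked how ovaries still under testosterone differed from those of oil-injected mice of the same age. Gli1, the transcription factor and pathway target, was the only one of the 9 genes to pass the test and was 1.61-fold higher in On T. Over all 18833 genes, 9.27% were called in this contrast and 4.24% were called higher, so a count of 1 in 9 is near the share of all genes. The receptor gene Ptch1 and the transducer gene Smo were, like Gli1, higher in all 4 On T libraries than in any Control OT library. Thus 3 of the 9 genes had groups that did not overlap, all with On T higher, against 7.22% of all genes tested. All 9 fitted log2 fold changes were above 0, with a median of 0.40 against -0.005 over all genes, although that of Gli3 was 0.01 and lay below 0 under 7 of the 27 alternatives.

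Among the ligands, Dhh, on chromosome 15 (GRCm38, 98891152 to 98898540, minus strand), had 57.0, 29.9, 65.0 and 49.3 CPM in On T ovaries, against 34.1, 38.8, 37.4 and 41.9 CPM in Control OT. On T libraries 1, 3 and 4 were above every control and On T library 2 was below all of them. The mean was 50.3 ± 15 CPM in On T and 38.0 ± 3.21 CPM in Control OT (SD, n = 4 each), and the log2 fold change of 0.40 (95% interval -0.01 to 0.82) did not pass (edgeR adjusted p = 0.236). Without On T library 2 it was 0.59 and passed (edgeR adjusted p = 0.0325). Part of the Dhh exons, 546 of 4399 bases, also belongs to Rhebl1 on the same strand and 1107 bases to the antisense gene Gm49442, so its counts are uncertain to that extent.

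Ihh, on chromosome 1 (74945315 to 74951672, minus strand), had 131, 40.7, 161 and 85.9 CPM in On T ovaries and 65.0, 69.8, 83.3 and 98.5 CPM in Control OT. As with Dhh, On T library 2 lay below every control, but here On T library 4 lay inside the range of the controls too. The log2 fold change was 0.40 with a wide interval from -0.29 to 1.09 (edgeR adjusted p = 0.52). The granulosa list, whose cells make these ligands, had 0 of 11 genes called in either direction (median log2 fold change 0.16). Over all genes 9.27% were called, so 0 of 11 does not show that granulosa cells were unchanged. The granulosa sum ran from 2910 to 11000 CPM in On T and from 5280 to 8640 CPM in Control OT.

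Among the receiving genes, Ptch1, the ligand receptor on chromosome 13 (63508328 to 63573598, minus strand), had 172, 308, 169 and 217 CPM in On T ovaries and 132, 169, 131 and 161 CPM in Control OT. The groups did not overlap, but the lowest On T and the highest control library both round to 169 CPM. The log2 fold change was 0.55 (SE 0.18, 95% interval 0.18 to 0.92) and narrowly missed the threshold (edgeR adjusted p = 0.0619). It passed with DESeq2 (log2 0.57, adjusted p = 0.0238) and in 5 other settings, and without On T library 2 it was 0.33.

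Smo, on chromosome 6 (29735503 to 29761365, plus strand), had 214, 202, 202 and 222 CPM in On T ovaries and 184, 186, 178 and 183 CPM in Control OT. The groups were tight and separate, with means of 210 ± 9.82 CPM in On T and 183 ± 3.56 CPM in Control OT (SD, n = 4 each). The difference was small, a log2 fold change of 0.20 (95% interval 0.03 to 0.38), and did not pass (edgeR adjusted p = 0.16). It passed without Control PT library 1, which enters the shared estimate of spread (log2 0.21, edgeR adjusted p = 0.0255).

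Gli1, on chromosome 10 (127329882 to 127341974, minus strand), had 22.5, 46.9, 25.1 and 22.9 CPM in On T ovaries and 18.2, 20.1, 14.8 and 20 CPM in Control OT. Every On T library was above every control, and On T library 2 was far above the other 3. The means were 29.4 ± 11.8 CPM in On T and 18.3 ± 2.47 CPM in Control OT (SD, n = 4 each), with a log2 fold change of 0.68 (SE 0.19, 95% interval 0.27 to 1.09, edgeR adjusted p = 0.035). Without On T library 2 the log2 fold change was 0.37 and the call was lost (edgeR adjusted p = 0.0745). It was lost also without each of the 4 Control OT libraries in turn (edgeR adjusted p = 0.0612 to 0.0973), in a fit of the 8 libraries alone (edgeR adjusted p = 0.121) and with limma on TPM (adjusted p = 0.158 to 0.169).

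Gli2 and Gli3, which carry the signal as activator and, chiefly Gli3, as repressor, showed no passing difference. Gli2, on chromosome 1 (118834132 to 119053619, minus strand), had 21.5 to 33.9 CPM in On T ovaries and 16.1 to 26.5 CPM in Control OT, with a log2 fold change of 0.34 (95% interval -0.10 to 0.77, edgeR adjusted p = 0.366). Gli3, on chromosome 13 (15463235 to 15730026, plus strand), had 7.41, 14.2, 8.44 and 7.63 CPM in On T ovaries and 7.59 to 10.8 CPM in Control OT, with a log2 fold change of 0.01 (95% interval -0.44 to 0.47, edgeR adjusted p = 0.981). For both genes the highest On T value was that of library 2.

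Hhip, on chromosome 8 (79965851 to 80058006, minus strand), encodes a membrane protein that binds Hedgehog ligands and takes them away from Ptch1. It had 20.6, 47.9, 26.5 and 24.3 CPM in On T ovaries and 17.9, 24.7, 13.8 and 29.6 CPM in Control OT. The groups overlapped, and On T library 2 was again the high value. The log2 fold change was 0.47 (95% interval -0.14 to 1.08, edgeR adjusted p = 0.368), and it was 0.15 without On T library 2.

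On T library 2 thus combined the lowest ligand levels of its group with the highest levels of the target genes. Relative to the mean of Control OT its log2 level was -0.35 for Dhh and -0.96 for Ihh, but 1.06 for Ptch1, 1.36 for Gli1 and 1.16 for Hhip. In the other 3 On T libraries the same quantity was 0.37 to 0.77 for Dhh, 0.12 to 1.02 for Ihh, 0.19 to 0.55 for Ptch1, 0.30 to 0.46 for Gli1 and -0.06 to 0.30 for Hhip. In On T library 2 the smooth muscle sum was high, as the target genes were, and the granulosa sum was low, as the ligand genes were. Over all 16 libraries, On T library 2 included, log2 CPM was also correlated within groups, as a description without a test. The correlation of Dhh was -0.71 with Ptch1, -0.62 with Gli1 and -0.45 with Hhip, and that of Ihh was -0.65, -0.66 and -0.42. These were not recomputed without On T library 2. In Control OT, libraries 2 and 4 were the highest both for Dhh (38.8 and 41.9 CPM) and for Ptch1 (169 and 161 CPM). In Post T and Control PT the library highest for Dhh (46.6 and 35.5 CPM) was the lowest for Ptch1 (128 and 111 CPM). Of 9 smooth muscle genes, 3 were higher in On T (Myh11, Acta2 and Synpo2) and none lower, and without On T library 2, or without Control OT library 2, none was called. Acta2, the actin of smooth muscle, had 721, 1290, 667 and 732 CPM in On T ovaries and 549, 466, 578 and 469 CPM in Control OT (log2 fold change 0.72, edgeR adjusted p = 0.0296). Of 8 stroma genes, 3 were higher in On T (Dcn, Pdgfra and Tcf21) and 2 lower (Col1a1 and Col3a1), against 9.27% of all genes called. The stroma sum was 3770 CPM in On T library 2 and 2330 to 2810 CPM in the other On T libraries. In Control OT it was 2920 to 3420 CPM. The part of these other cells in the values of Gli1, Ptch1 and Hhip was not tested.

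**Figure D2:**
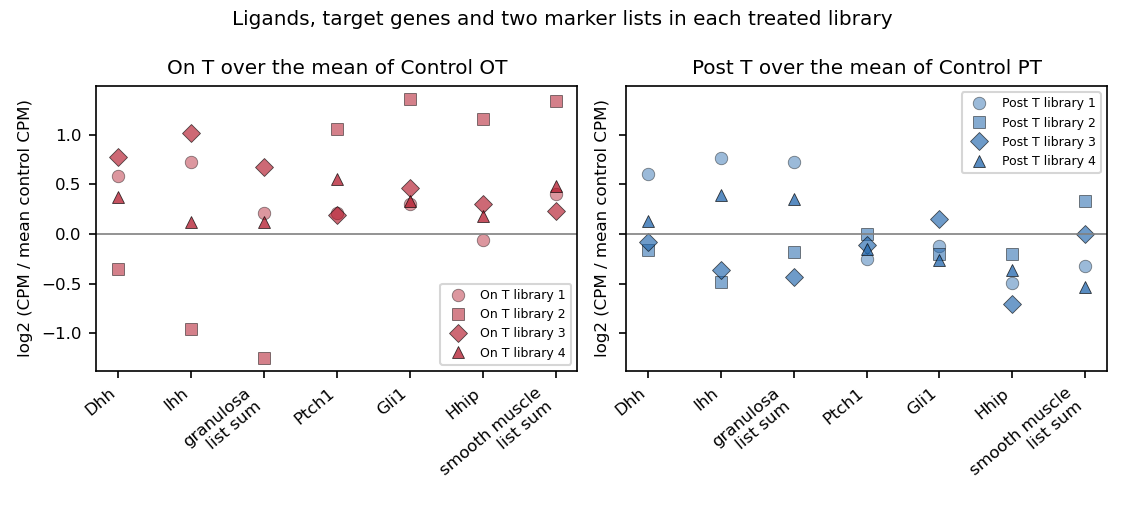
Log2 of the CPM of each treated library over the mean of its control group, for the ligand genes, the summed granulosa list, Ptch1, Gli1, Hhip and the summed smooth muscle list, with On T on the left and Post T on the right. Each symbol is 1 library, and a value of 0 equals the control mean. On T library 2 (squares, left) lies at -0.96 for Ihh and at 1.36 for Gli1, the other 3 On T libraries at 0.12 to 1.02 and 0.30 to 0.46.

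The second comparison asked what remained after testosterone had been stopped for 4 cycles. Insl3 was the only one of the 9 genes that passed, and it was 3.71-fold higher in Post T ovaries than in Control PT, its groups apart. Over all genes 12.3% were called in this contrast and 7.49% were called higher, so 1 in 9 is again near the share of all genes. None of the 8 Hedgehog genes passed, and all 8 had overlapping groups, while 16.5% of all genes had groups that did not overlap. Their log2 fold changes ran from -0.43 for Hhip to 0.17 for Ihh.

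Gli1 had 22.0, 20.7, 26.5 and 20 CPM in Post T ovaries and 21.7, 23.5, 24.8 and 25.5 CPM in Control PT. The values were interleaved, and the log2 fold change was -0.10 (95% interval -0.51 to 0.31, edgeR adjusted p = 0.833). Ptch1 had 128, 153, 142 and 138 CPM in Post T ovaries and 111, 159, 168 and 175 CPM in Control PT. All 4 Post T values lay inside the range of the controls (log2 fold change -0.13, 95% interval -0.50 to 0.24, edgeR adjusted p = 0.752).

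Hhip had 14.9, 18.1, 12.8 and 16.2 CPM in Post T ovaries and 14.2, 18.1, 32.9 and 18.3 CPM in Control PT. The spread of this contrast came mainly from 1 high control (log2 fold change -0.43, 95% interval -1.04 to 0.19, edgeR adjusted p = 0.434). Dhh had 27.6 to 46.6 CPM in Post T ovaries and 27.1 to 35.5 CPM in Control PT, and Ihh had 38.3 to 90.2 CPM in Post T ovaries and 44.9 to 63.6 CPM in Control PT. Their log2 fold changes were 0.16 and 0.17 (edgeR adjusted p = 0.726 and 0.837). The log2 fold change of Smo was -0.004 with the narrowest interval of the 9 genes, -0.18 to 0.17, and those of Gli2 and Gli3 were 0.10 and -0.10.

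**Figure D3:**
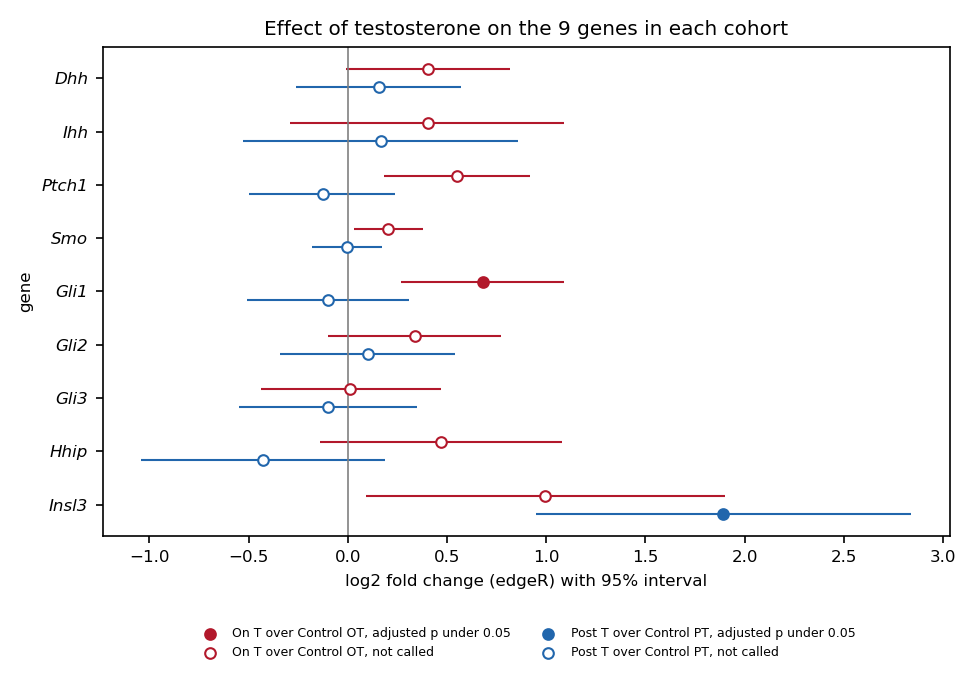
Log2 fold change of each of the 9 genes from edgeR, with its 95% interval, for On T over Control OT (upper mark of each gene) and Post T over Control PT (lower mark). Filled marks have an adjusted p under 0.05 and open marks do not, and the vertical line is no difference. Gli1 is filled for On T (0.68) and Insl3 for Post T (1.89).

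Passing in one comparison and not in the other does not show that the effects differ, so the difference itself was tested. Taken as the Post T effect minus the On T effect, it was -0.78 for Gli1 (95% interval -1.36 to -0.21), -0.67 for Ptch1 (-1.20 to -0.15) and -0.90 for Hhip (-1.77 to -0.03) on the log2 scale. None of the 9 passed after adjustment over all genes (edgeR adjusted p = 0.164, 0.193 and 0.324 for these, with unadjusted p = 0.0109, 0.0147 and 0.0426), against 3.25% of all genes. For Insl3 the difference was 0.90 with an interval from -0.39 to 2.19 (edgeR adjusted p = 0.558).

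Insl3 lies on chromosome 8 (71689214 to 71690575, plus strand). Its CPM was 16.0, 13.2, 12.2 and 45.3 in Post T ovaries, against 3.04, 8.03, 7.97 and 4.33 in Control PT. The groups did not overlap, and Post T library 4 was far above the other 3. The means were 21.7 ± 15.8 CPM in Post T and 5.84 ± 2.54 CPM in Control PT (SD, n = 4 each), with a log2 fold change of 1.89 (SE 0.45, 95% interval 0.95 to 2.84, edgeR adjusted p = 0.00866). Without Post T library 4 it was 1.26 and still passed (edgeR adjusted p = 0.0386). Ages differed within these groups, and Insl3 was higher in Post T at each age. At 24 weeks 45.3 CPM stood against 3.04, at 26 weeks 16.0 and 13.2 against 8.03 and 4.33, and at 28 weeks 12.2 against 7.97. At 24 and at 28 weeks this is 1 mouse against 1, so these values are no test of age. The pair at 24 weeks is Post T library 4 and Control PT library 1, which held only 78 counts of Insl3.

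In On T ovaries Insl3 had 21.4, 25, 39.2 and 15.9 CPM, against 20.1, 8.58, 13.1 and 8.98 CPM in Control OT. Only On T library 4 fell below the highest control, so the groups overlapped by a single library on each side. The log2 fold change of 0.99 (SE 0.43, 95% interval 0.09 to 1.90) did not pass (edgeR adjusted p = 0.178). Nor did it in any of the 27 other settings, including that in which the counts of the overlapping gene Jak3 were added. Between the controls Insl3 was lower in the older ovaries, all 4 of Control PT lying below all 4 of Control OT (log2 fold change -1.12, 95% interval -2.06 to -0.18), but this too did not pass (edgeR adjusted p = 0.394). As levels, Post T library 4 (45.3 CPM) lay above all On T ovaries (15.9 to 39.2 CPM). The other Post T ovaries (12.2 to 16.0 CPM) lay near or below the lowest On T value. They were inside the range of Control OT (8.58 to 20.1 CPM).

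Much of Insl3 cannot be counted apart from a neighbour. Of its 623 exon bases, 404 (64.8%) are also exon of Jak3, a kinase gene on the same strand, so the division of reads between them depended on the estimate of the counting program. Jak3 had 14.7, 14.9, 15.3 and 12.5 CPM in Post T ovaries and 10.6, 10.6, 12.1 and 12.0 CPM in Control PT (log2 fold change 0.34, edgeR adjusted p = 0.137). These groups of Jak3 did not overlap, with Post T higher, as for Insl3. It had 9.86, 11.7, 7.92 and 10.7 CPM in On T ovaries and 9.16, 11.4, 9.20 and 13.0 CPM in Control OT. Post T library 4, which was the highest for Insl3, was the lowest of its group for Jak3. When the counts of both genes were added, the sum was higher in Post T, with a smaller log2 fold change of 1.07 (edgeR adjusted p = 0.00453). Because both genes as counted were higher in Post T, the sum cannot say how the reads should be divided between them.

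**Figure D4:**
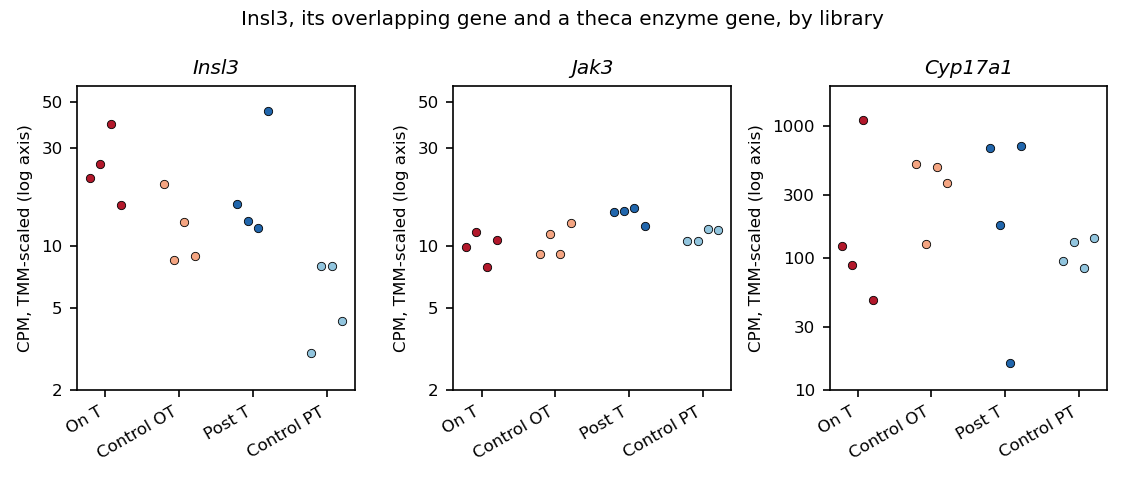
CPM of Insl3, of Jak3, whose exons overlap those of Insl3, and of the theca enzyme gene Cyp17a1 in each library, on log axes, with groups from left to right On T, Control OT, Post T and Control PT. Each point is 1 library. Insl3 is at 12.2 CPM or more in every Post T library and at 8.03 CPM or less in every Control PT library. Jak3 lies between 7.92 and 15.3 CPM in all 16, and every Post T library is above every Control PT library for Jak3 too.

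Among other genes of theca and interstitial cells, Cyp17a1, the enzyme gene that makes androgen in theca cells, had 678, 176, 15.9 and 700 CPM in Post T ovaries and 95.3, 132, 84.1 and 142 CPM in Control PT (log2 fold change 1.79, 95% interval -0.21 to 3.80, edgeR adjusted p = 0.284). It had 122, 88.1, 1100 and 47.6 CPM in On T ovaries and 510, 128, 487 and 368 CPM in Control OT. The ratio of Insl3 to Cyp17a1 in TPM therefore ran from 0.0991 to 3.26 over the 16 libraries, and both extremes were Post T ovaries. Of the 10 theca and interstitial genes examined, which luteal cells share in part, 0 were called higher and 2 lower in On T (Star and Cyp11a1), with a median log2 fold change of -0.08. In Post T 1 was called higher (Aldh1a1, log2 1.12, edgeR adjusted p = 0.000856) and 1 lower (Star, log2 -2.01, edgeR adjusted p = 0.0204), with a median of -0.11. Over all genes 9.27% were called in On T and 12.3% in Post T, so these few calls do not show a change of theca cells. The call of Aldh1a1 held in all 27 other settings. That of Star held in 19, and without Control PT library 1 its log2 fold change was -1.20 and did not pass (edgeR adjusted p = 0.112).

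Star, which brings cholesterol into the mitochondrion, and Cyp11a1, which cuts its side chain, had log2 fold changes of -3.06 and -2.09 in On T (edgeR adjusted p = 0.00229 and 0.000864). Both enter the corpus luteum's steroid synthesis as well, and 6 of 9 luteal genes were lower in On T and 7 of 9 in Post T. The shares of all genes called, in either direction, were 9.27% and 12.3%. Lhcgr, the receptor for luteinising hormone on theca and luteal cells, had 61.3 to 193 CPM in On T ovaries and 204 to 381 CPM in Control OT (log2 fold change -1.46, edgeR adjusted p = 0.0858). It had 184 to 672 CPM in Post T ovaries and 153 to 786 CPM in Control PT (log2 fold change -0.02, edgeR adjusted p = 0.99).

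Of the 11 genes of the Insl3 receptor, its relatives and transcription factors known to act on the Insl3 promoter, 7 had enough counts. The receptor gene Rxfp2 was not among them, with at most 0.178 CPM in any library. No gene was called in On T and 2 were called in Post T, against 9.27% and 12.3% of all genes. In Post T Gata4 was higher (log2 0.60, edgeR adjusted p = 0.0397) and Nr4a1 lower (log2 -1.78, edgeR adjusted p = 0.0291). Gata4 had 427, 331, 276 and 349 CPM in Post T ovaries and 178, 282, 209 and 245 CPM in Control PT. Nr4a1, a nuclear receptor that raises Insl3 transcription in Leydig cells, had 19.2, 21.4, 17.1 and 48.7 CPM in Post T ovaries and 122, 84.7, 28.8 and 132 CPM in Control PT. The call of Gata4 held in 17 of the 27 other settings and that of Nr4a1 in 21. Leaving out Post T library 1, 2 or 4 or Control PT library 1, 3 or 4 ended that of Gata4 (edgeR adjusted p up to 0.107), as did the replicate block and limma. Leaving out Post T library 1, 2 or 3 or Control PT library 1 or 4 ended that of Nr4a1 (edgeR adjusted p up to 0.0939).

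Nr5a1, the steroidogenic factor that binds the Insl3 promoter in Leydig cells, had 570, 307, 327 and 509 CPM in Post T ovaries and 277, 341, 251 and 385 CPM in Control PT (log2 fold change 0.45, edgeR adjusted p = 0.154). In On T its log2 fold change was 0.13 (edgeR adjusted p = 0.748). Nr2f2, a nuclear receptor of stromal and theca cells, had 181, 280, 144 and 188 CPM in On T ovaries and 162, 125, 114 and 116 CPM in Control OT, and it just missed the threshold (log2 fold change 0.62, edgeR adjusted p = 0.0502). On T library 2 was again the highest, and with 1 library left out the log2 fold change was 0.41 to 0.76.

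The sequence upstream of Insl3 is shown because Insl3 carries the one call after testosterone was stopped. It is the plus strand of chr8:71689002-71689213 from the RefSeq promoter table for GRCm38.p6, ending at the base before the gene's annotated start, and capitals mark the letters CAAGGNC, a short form of the NR5A1 binding motif that was chosen after the sequence had been seen.

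Insl3 upstream: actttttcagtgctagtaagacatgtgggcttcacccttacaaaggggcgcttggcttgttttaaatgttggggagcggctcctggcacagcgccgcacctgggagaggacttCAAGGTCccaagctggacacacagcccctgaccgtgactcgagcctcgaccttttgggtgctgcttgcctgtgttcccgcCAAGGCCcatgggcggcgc

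The 2 matches begin 137 and 57 bases before the RefSeq start. That start lies downstream of the annotated start at 71689214, so these distances are not counted from the last base shown. A match to CAAGGNC on either strand was found in 17.8% of 32851 RefSeq promoters of the same table (250 bases before to 50 after the start), and among the 9 genes also once in that of Ihh. Promoters of 8 of the 9 genes were in the table, and that of Gli1 was not used here. None of the 8 held the letters GACCACCCA of the GLI binding motif (0.253% of all promoters), CAAGGTCA of the full NR5A1 motif (1.56%), AAAGGTCA of the NR4A1 motif (1.51%) or AGAACA, part of the androgen receptor motif (19.0%), on either strand. These are descriptions of letters in a short window and not of binding. The window of Ptch1 (63565686 to 63565985) lies inside the gene, downstream of its annotated start at 63573598. That of Gli3 (15463473 to 15463772) also begins downstream of its annotated start at 15463235. For these genes the letters at the annotated start were not searched.

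Of 28 other genes of the Hedgehog pathway, 27 had enough counts to be tested. In On T 4 were called higher and 1 lower, with a median log2 fold change of -0.05, and in Post T 2 were higher and 1 lower, with a median of -0.08. Over all genes 9.27% were called in On T (4.24% higher) and 12.3% in Post T (7.49% higher). The 3 of 27 called in Post T are thus near the share of all genes. Of those that were higher, Boc and Cdon are co-receptors that bind the ligands beside Ptch1, Evc is a protein of the ciliary base that works with Smo, and Gpc3 is a glypican that binds ligands at the cell surface.

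Boc had 69.5, 88.4, 62.4 and 66.9 CPM in On T ovaries and 49.1, 36.9, 45.1 and 37.7 CPM in Control OT, and 54.0, 62.2, 64.8 and 69.5 CPM in Post T ovaries and 31.3, 54.3, 44.9 and 40.7 CPM in Control PT. The groups were apart in the younger ovaries and overlapped narrowly in the older ones (log2 fold change 0.77 in On T and 0.55 in Post T, edgeR adjusted p = 0.00383 and 0.0238). The On T call of Boc held in all 27 other settings, with log2 values of 0.65 to 0.85. The Post T call held in 21 and was lost with limma (adjusted p up to 0.0826) and without Post T library 3 or 4 or Control PT library 1 or 4 (edgeR adjusted p = 0.0584 to 0.0696).

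Cdon had 76.6, 103, 86.4 and 71.5 CPM in On T ovaries and 68.3, 43.4, 53.4 and 53.5 CPM in Control OT. In the older ovaries it had 96.5, 91.4, 57.9 and 114 CPM in Post T and 40.2, 61.3, 49.5 and 48.6 CPM in Control PT. Of these calls (log2 fold change 0.63 in On T and 0.85 in Post T, edgeR adjusted p = 0.0446 and 0.00545) the one in Post T held in all 27 other settings, and the one in On T in 13. Without On T library 2, the highest of its group for Cdon, the On T value was 0.52 and did not pass (edgeR adjusted p = 0.125). Boc and Cdon were the only genes of this list called higher in both comparisons. How many of all genes were called higher in both was not counted. The comparisons share no library, but they share 1 fit and its estimate of spread. Without Post T library 1 or 2 or Control PT library 3 or 4, the On T call of Cdon was lost (edgeR adjusted p = 0.0513 to 0.0561).

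Gas1, the third co-receptor of the ligands, was not called in either comparison. It had 56.3, 80.8, 61.5 and 58 CPM in Post T ovaries and 92, 95.8, 84.7 and 81.9 CPM in Control PT. All 4 Post T values lay below every control, on the other side from Boc and Cdon, but the log2 fold change of -0.47 (95% interval -0.85 to -0.08) did not pass (edgeR adjusted p = 0.119), and it passed in 4 of the 27 other settings. In the younger ovaries it had 48.9, 81.3, 36.6 and 46 CPM in On T and 54.3, 62.9, 53 and 57.5 CPM in Control OT (log2 fold change -0.10, edgeR adjusted p = 0.8).

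Evc had 36.4, 49.0, 36.8 and 35.8 CPM in On T ovaries and 29.3, 30.1, 27.2 and 28.9 CPM in Control OT (log2 fold change 0.45, edgeR adjusted p = 0.00846). The groups did not overlap, and the call held in all 27 other settings. Gpc3 had 53.5, 70.7, 51.8 and 53.1 CPM in On T ovaries and 43.8, 45.6, 40.4 and 47.6 CPM in Control OT. Its groups were apart too (log2 fold change 0.37, edgeR adjusted p = 0.0373), but its call held in only 16 of the settings. Without On T library 2, the highest of its group for Gpc3, it was 0.25 and did not pass (edgeR adjusted p = 0.106).

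Of the genes that were lower, Disp2, a relative of the ligand exporter Disp1, was near the limit of detection, with at most 0.882 CPM in any library (On T log2 fold change -1.56, edgeR adjusted p = 0.0393), and its call held in 13 of 26 other settings. Hhat, the enzyme that attaches palmitate to Hedgehog ligands, had 9.27, 8.35, 7.13 and 8.96 CPM in Post T ovaries and 10.1, 11.0, 9.98 and 12.9 CPM in Control PT (log2 fold change -0.38, edgeR adjusted p = 0.0379), a call that held in 14 of 27 other settings. Disp2, Gas1 and the On T value of Cdon were named after their values were seen. Sufu, which holds the Gli proteins in the cytoplasm, had log2 fold changes of 0.05 in On T and -0.12 in Post T and passed in neither (edgeR adjusted p = 0.797 and 0.53).

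**Figure D5:**
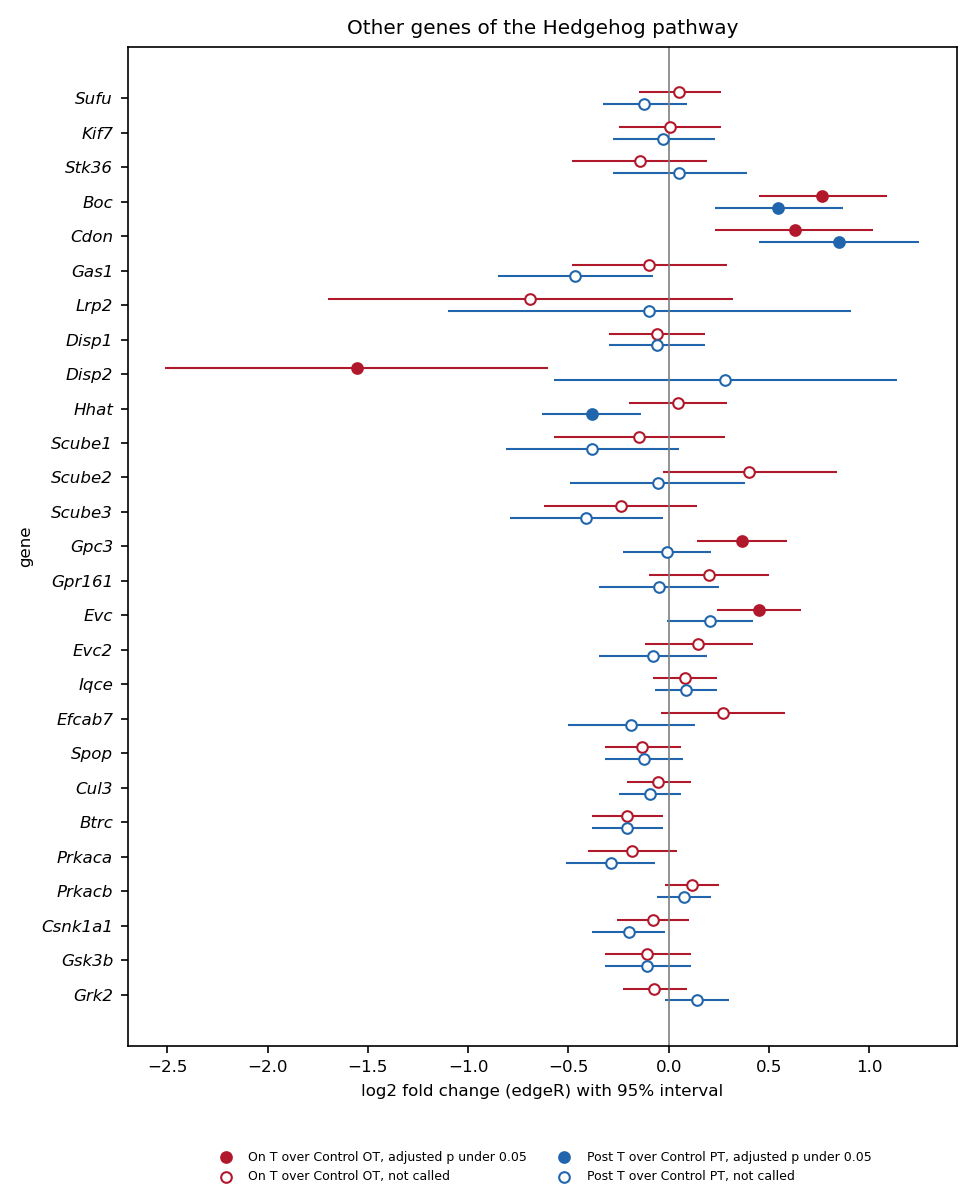
Log2 fold change with its 95% interval, from edgeR, of the 27 tested other genes of the Hedgehog pathway, for On T over Control OT (upper mark of each gene) and Post T over Control PT (lower mark). Filled marks have an adjusted p under 0.05. Boc and Cdon are filled on the right of 0 in both comparisons, and most other genes have intervals that include 0.

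Of 11 genes listed as Gli targets in other tissues, 10 were tested and 1 was higher in On T, the survival gene Bcl2 (log2 fold change 0.61, edgeR adjusted p = 0.00982), with a median log2 fold change of 0.23. In Post T none of the 10 was called, with a median of -0.02. Over all genes 9.27% were called in On T and 12.3% in Post T, so 1 of 10 in On T is near the share of all genes. Bcl2 had 24.8, 36.8, 23.5 and 25 CPM in On T ovaries and 19.2, 18.2, 16.5 and 18 CPM in Control OT. Every On T value lay above every control, with library 2 the highest once more. The 18 genes of transport into the primary cilium, in which Smo acts, included 0 that were called in either comparison, with medians of 0.06 in On T and 0.03 in Post T.

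Between the controls, older minus younger, none of the 9 genes was called, nor was any of the 18833 genes (0%, edgeR, with 1892 at an unadjusted p under 0.05, while DESeq2 called 173). Among the 9 genes, 3 had groups that did not overlap, against 5.89% of all genes. They were Insl3, described above, Ihh, with 52.4, 63.6, 44.9 and 52.9 CPM in Control PT and 65.0, 69.8, 83.3 and 98.5 CPM in Control OT, and Gli1, higher in Control PT. The log2 fold changes of Ihh and Gli1 were -0.57 and 0.39 (edgeR adjusted p = 0.601 and 0.525).

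The genes most like each member over the 16 libraries were ranked by the Pearson correlation of log2 CPM among 13723 genes, as a description without a test, since the libraries share treatment and tissue makeup. Dhh was most like Large2 (0.981), Cbs and Dpf3, and Ihh was most like Hey2 (0.938), Lrrc41 and Lzts1. Ptch1 was most like Prkg1 (0.948), Adgrl2 and Itga8, Gli1 was most like Ino80dos (0.902), Ldb3 and Hspa12b, and Hhip was most like Nhsl2 (0.855), Prtg and Rab23. The genes most like Insl3 were Lca5 (0.934), Pwwp3b and Cdhr5.

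Markers of other cells were examined as lists in the same fit, in which 9.27% of all genes were called in On T and 12.3% in Post T. Of 8 macrophage genes 6 were higher in On T and 7 in Post T, with summed levels of 649 to 1190 CPM in On T against 256 to 434 CPM in Control OT and 5070 to 7850 CPM in Post T against 463 to 1120 CPM in Control PT. Of 6 tested Schwann cell genes, a cell type that makes Dhh in nerve, 2 were lower in each comparison (S100b and Mbp), while the defining gene Sox10 had too few counts to be tested. No oocyte gene was called in either comparison, and Gdf9, a factor secreted by the oocyte, had log2 fold changes of -0.33 in On T and 0.09 in Post T (edgeR adjusted p = 0.301 and 0.851). The part of these cells in the values of the 9 genes was not tested.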

How the data were processed

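RNA was measured in 16 ovaries, and the libraries were directional, made from poly(A) RNA and read from both ends, per the labels' protocols. Tools named in the submitters' processing notes are STAR 2.7.8a, RSEM 1.3.3, cutadapt 2.3 and FastQC 0.11.8, with the build GRCm38. Which annotation release was used, and whether counting used strand, is not given in the sources used here. The deposited expected counts are estimates per gene made by the authors, not normalised, and held whole numbers. TPM values, as deposited, carry the authors' scaling for length and library size.

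Expected counts of all 16 libraries entered 1 fit in edgeR 4.0.16 (R 4.3.3), with a mean per group, TMM scaling and filterByExpr at a minimum count of 10, which kept 18833 of 55426 genes. Contrasts were tested by quasi-likelihood F tests, with p-values adjusted over all tested genes after Benjamini and Hochberg, and a gene was called at an adjusted p under 0.05. Standard errors and 95% intervals come from the fold change and its F statistic. Positions and exon overlaps came from GENCODE M21, in which 55154 identifiers (99.51%) were found. Promoters came from RefSeq.

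The 9 genes, the lists and the tests were chosen with earlier results of these data known. Named were the 9 genes, up to 4 called genes with the smallest p from each of 5 lists (other pathway genes, Gli targets, cilium transport, Insl3 receptor and regulators, theca and interstitial genes), 10 fixed genes, of which 1 is not reported here and was left out of the lists, and the 3 genes most like each of 6 members. Alternatives used other size factors, other filters, DESeq2 1.42.0, limma 3.58.1 on log2(TPM + 1) and log2(TPM + 0.1), the 8 libraries compared, a replicate block, age as a covariate, and each library left out in turn. Leaving out 2 libraries together, and adding the counts of Jak3 to Insl3 and of Rhebl1 to Dhh, were chosen after seeing the data. The fit was tested on simulated data.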

Additional observations from a re-analysis of the deposited data

Results flagged for a closer look

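In 36 groups of 4 libraries (the 9 genes in each group) the highest or lowest library was set against the others, and 4 groups had a library far from the rest. Chance gives about 1 such group in 20. For Gli1 it was On T library 2 with 46.9 CPM, against 22.5 to 25.1 CPM in the other On T libraries. For Gli3 it was On T library 2 with 14.2 CPM and, low, Control PT library 1 with 6.12 CPM. For Insl3 it was Post T library 4 with 45.3 CPM, against 12.2 to 16.0 CPM in the other Post T libraries.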

How the results depend on the processing

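The call of Insl3 in Post T held in all 27 alternatives, with adjusted p of 0.00144 to 0.0386. Its log2 fold changes were 1.26 to 2.10, the range also given by leaving out 1 library. The exception was 1.07 for the summed counts of Insl3 and Jak3, which is not a value of Insl3 alone. Leaving out a library of On T or Control OT, which are not in this contrast, gave 1.89 to 1.91. In On T the count of called members was 1 with edgeR, and it was 2 with no filter, with DESeq2, with a replicate block and without On T library 2 and Control PT library 1 together. It was 0 with limma on either TPM scale or when only the 8 libraries compared were fitted, and 0 to 3 when 1 library was left out. The causes were not tested. In Post T the count was 1 in every alternative run, and for the difference of effects and between the controls it was 0.

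No label says what the library numbers stand for, and they were not taken as pairs. Deviations of libraries with the same number correlated at -0.019 to 0.13 between On T and Control OT. Between Post T and Control PT the correlations were 0.042 to 0.233. Libraries with unlike numbers were not correlated for comparison, so these values cannot say whether a number marks a shared effect. With the replicate block, Gli1 in On T was 0.65 (adjusted p = 0.0483), Ptch1 was 0.53 (adjusted p = 0.0223), and Insl3 in Post T was 1.88 (adjusted p = 0.0248).

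Over all genes the count called in On T was 1746, with 1130 by limma on log2(TPM + 1) and 1081 to 2071 when 1 library was left out. For the difference of effects it was 612, with 999 by DESeq2 and 453 to 735 when 1 library was left out. Between the controls it was 0, with 20 without a filter, 173 by DESeq2, 1 without both libraries and 0 to 9 when 1 was left out. Of the other pathway genes, 4 were called higher in On T, and 2 to 4 across the alternatives. Of 3424 recomputed counts of called genes per list, 185 moved by over 1.5 times.

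Sign changes touched only values that had passed no test. With age as a covariate, which nearly coincides with the contrast between the controls, that contrast gave 0.39 for Dhh, -0.37 for Gli1, 0.65 for Ihh, 0.51 for Insl3, -0.72 for Ptch1 and -0.51 for Smo, and in Post T Smo was 0.002 and Lhcgr 0.01. Between the controls Gli3 was 0.016 with DESeq2 or its size factors, 0.003 with no filter or the filter of 1 CPM and 0.015 with the 8 libraries alone. With limma on log2(TPM + 1) and log2(TPM + 0.1), Hhip was 0.054 and 0.065 and Smo -0.02 and -0.021 between the controls, and Gli3 in On T was -0.015 and -0.031. Smo in Post T was 0.014 with no filter and 0.02 with the filter of 1 CPM. With the replicate block Gli3 in On T was -0.018 and Lhcgr in Post T 0.046. Without On T library 2 and Control PT library 1, On T gave 0.18 for Cyp17a1 and -0.25 for Gli3, Post T gave -0.03 for Gli2 and 0.28 for Lhcgr, the difference of effects gave 0.017 for Gli3, and the contrast of the controls gave 0.10 for Gli2, 0.15 for Gli3 and 0.11 for Hhip.

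When 1 library was left out, On T values ran from -2.11 to 0.23 for Cyp17a1, from -0.375 to 0.059 for Gas1 and from -0.25 to 0.13 for Gli3. Post T values ran from -0.206 to 0.044 for Acta2, -0.005 to 0.26 for Dhh, -0.004 to 0.17 for Gdf9, -0.03 to 0.29 for Gli2, -0.072 to 0.348 for Ihh, -0.30 to 0.35 for Lhcgr and -0.068 to 0.064 for Smo. The difference of effects ran from -0.26 to 0.15 for Gli3 and -0.50 to 0.06 for Ihh. The contrast of the controls ran from -0.25 to 0.11 for Gli2, -0.09 to 0.15 for Gli3, -0.34 to 0.16 for Hhip, -0.022 to 0.18 for Ptch1 and -0.034 to 0.097 for Smo.

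Depth limited Insl3 in Control PT, where a library held as few as 78 counts, and Shh and Rxfp2, which had too few counts to test. Counts cannot separate Insl3 from Jak3 in their shared exon bases, and 4 mice per group limit every interval given.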
